A study of Mus musculus with 42 samples.

Results

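Transcript levels of 10 genes of insulin and insulin-like growth factor (IGF) signaling were followed in the TA (tibialis anterior) muscle of the mouse hindlimb: *Igf1*, *Igfbp5*, *Igf1r*, *Insr*, *Irs1*, *Irs2*, *Akt1*, *Akt2*, *Foxo1* and *Foxo3*. They were taken by gene symbol from the deposited table of 13809 genes, and each symbol matched 1 row. RNA of 42 muscles, all from male mice on a C57BL/6J background at 4 months of age, was sequenced in 2 sets. Set 1 holds WT, Sesn1SkM-Tg and Sesn2SkM-Tg mice, each in the basal state and after 3 days of immobilization. Set 2 holds WT and Sesn1KO mice in these same states, and WT muscle 3 days after denervation. Every group has 4 libraries, with the exception of 2 groups of 3, the immobilized Sesn1SkM-Tg muscle and, in set 1, the immobilized WT muscle.

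Sesn1SkM-Tg mice carry a human Sesn1 cDNA driven by the muscle creatine kinase (MCK) promoter. Sesn2SkM-Tg mice express human Sesn2 from a Tet-regulated promoter together with an MCK-driven tTA activator, so both transgenes are switched on in muscle fibres. Sesn1KO mice lack Sesn1 in the whole body, came from another laboratory and were set against WT mice. Immobilization was a rigid splint on the right hindlimb, denervation was the removal of a piece of the right sciatic nerve, and basal muscles came from mice without either. The sample labels do not say which litters the WT muscles of set 1 came from.

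IGF1, made in muscle and other tissues, and insulin act through 2 related receptor tyrosine kinases, encoded by *Igf1r* and *Insr*. The activated receptors phosphorylate the adaptors IRS1 and IRS2, which recruit PI3 kinase and thereby switch on the AKT kinases. AKT favours protein synthesis and glucose uptake in muscle and phosphorylates the FoxO transcription factors, which then stay out of the nucleus, whereas nuclear FoxO turns on genes of protein breakdown such as the ubiquitin ligase genes *Fbxo32* (Atrogin1) and *Trim63* (MuRF1). All values here are of mRNA, and phosphorylation, on which the pathway's activity rests, was not analysed.

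The deposited values are normalized counts, whose library sums lay between 722430 and 1276769, and since the number of reads behind them is unknown no counting error can be given. The 5 fast fibre markers (*Acta1*, *Ckm*, *Myh4*, *Tnnt3*, *Actn3*) summed to between 88059 and 127685 in basal muscle, while the 3 slow fibre markers summed to at most 44.1 in any library, the fibre make-up for which TA is known. *Sesn1* read 41.6 to 77.6 in basal Sesn1SkM-Tg muscle beside 15.0 to 22.1 in basal WT muscle of set 1, and 8.41 to 10.1 in basal Sesn1KO muscle beside 22.5 to 29.7 in basal WT muscle of set 2. In immobilized Sesn1KO muscle it read 19.4 to 37.3, overlapping the 30.7 to 53.1 of immobilized WT muscle, and which part of the gene the knockout removes was not given in the sources used here. *Sesn2* read 6.54 to 14.5 in Sesn2SkM-Tg muscle and 1.86 to 4.63 in the other muscles of set 1. Both transgenes are human while reads were aligned to the mouse transcriptome, so these values do not give the size of the overexpression. Correlations within a group were lowest, at 0.959 or above, for libraries of immobilized Sesn1SkM-Tg muscle and for basal WT replicate 4 and basal Sesn2SkM-Tg replicate 2 of set 1.

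Differences were fitted with limma on log2(value + 1), over the 13705 genes tested in set 1 or the 13629 tested in set 2. A gene was called higher or lower at a Benjamini-Hochberg adjusted p under 0.05 over all those genes, provided that the log2 fold change was 0.25 or more in size. Each fold given below is on this log2(value + 1) scale, which understates the change of low genes, and each ± after a log2 value is its standard error. Nothing in the labels says whether each library is a separate mouse, so the p-values measure the spread between libraries. In whole muscle, fewer cells of a type and less RNA per cell cannot be told apart.

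The plot of library values shows that the 10 genes sat at very different levels. Per kilobase of annotated exon, the mean normalized count over the 42 libraries was highest for *Igfbp5*, at 91.5, followed by *Akt2* at 38.3 and *Akt1* at 23.7. *Insr* (5.93), *Irs1* (4.06), *Foxo3* (3.37), *Foxo1* (2.59), *Irs2* (1.79) and *Igf1* (1.24) came next, and *Igf1r* was lowest at 0.330. Libraries of 1 group varied least for *Foxo3* and *Akt2*, with median coefficients of variation of 10.5% and 11.6%, and most for *Igf1*, at 36.5%. Where a gene's groups are put in order of their means, most neighbours in that order overlapped in their libraries. In set 1 at least 4 of the 5 neighbouring pairs did so for every gene, and in set 2 between 2 and 4 of the 4 pairs.

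**Figure D1:**
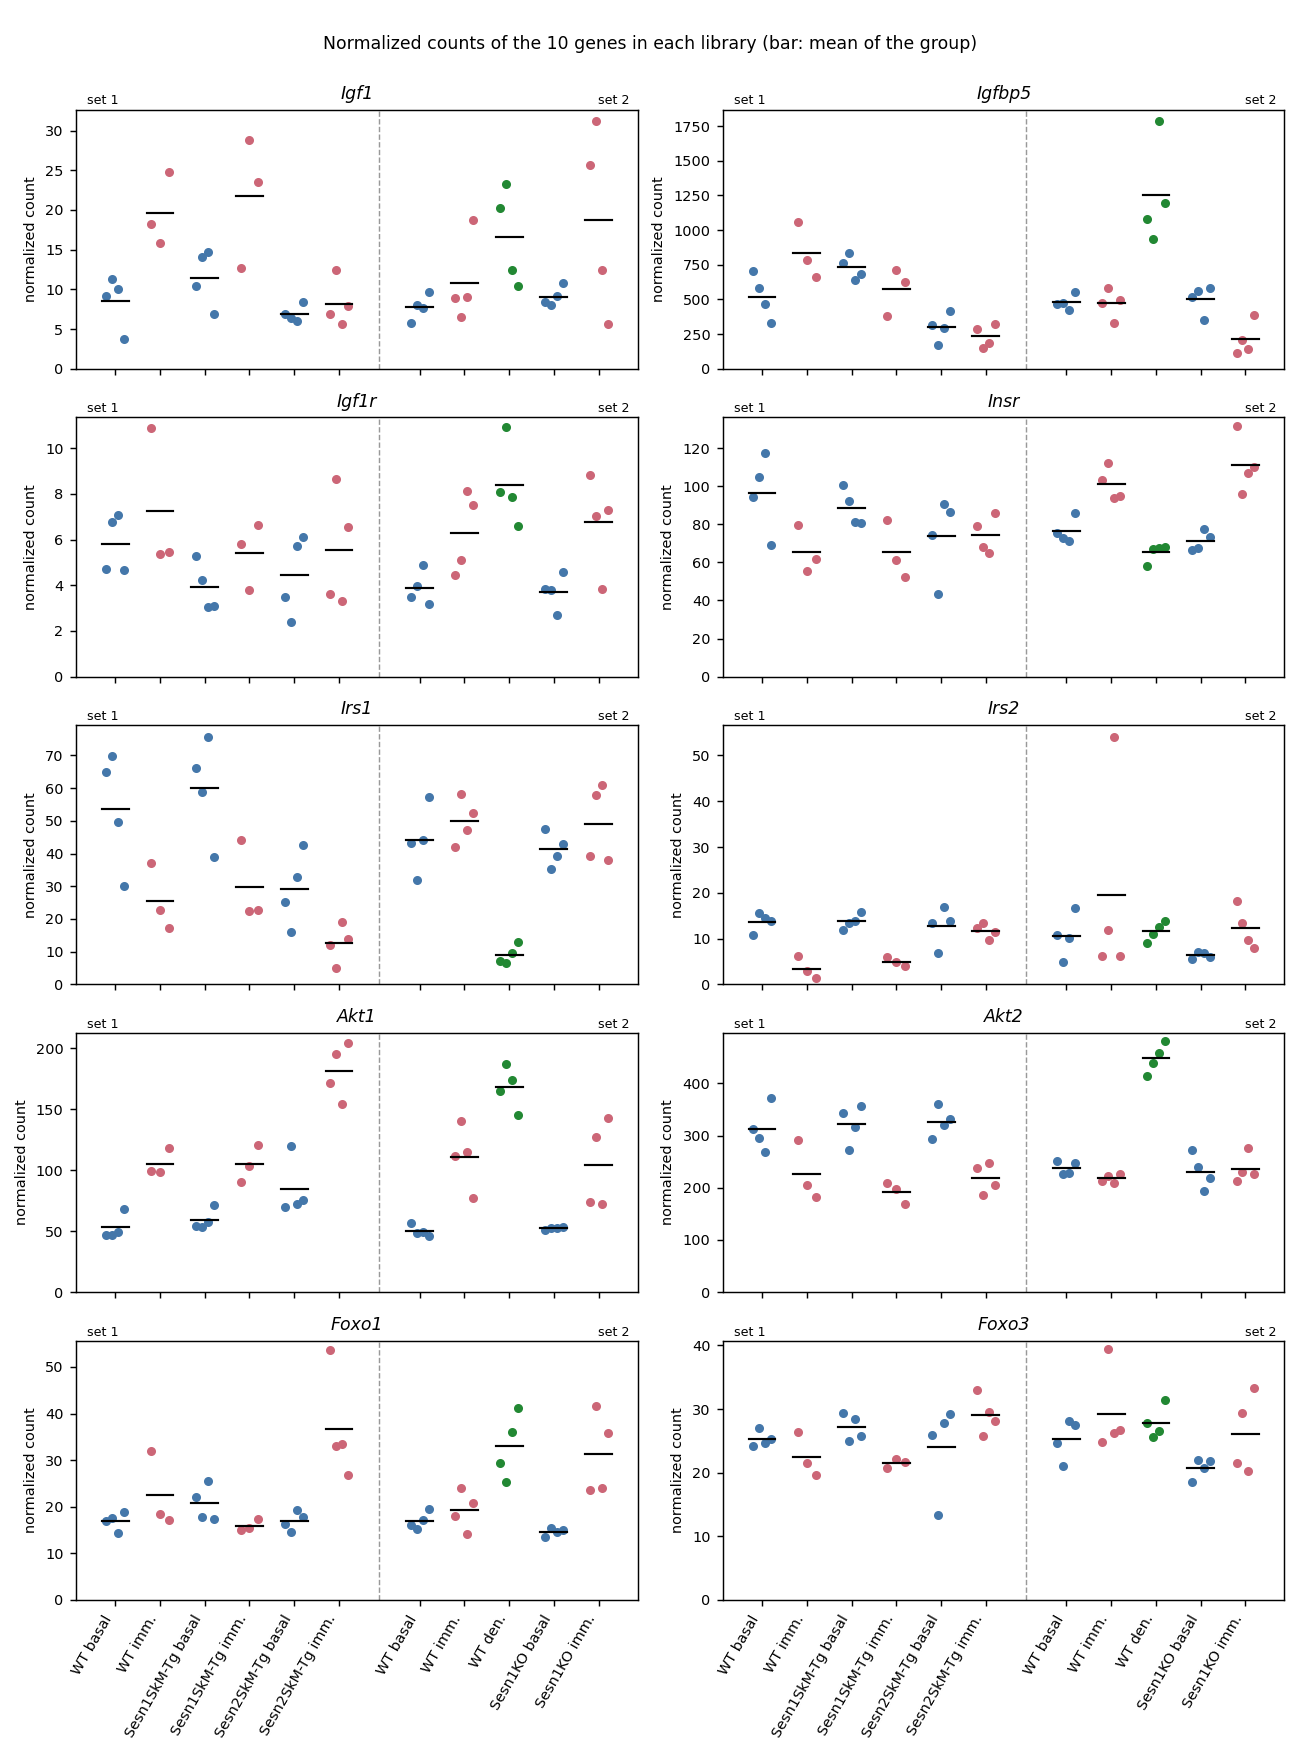
Normalized counts (linear axis from 0) of the 10 genes in each of 42 libraries, set 1 left and set 2 right of the dashed line, with basal muscle in blue, immobilized (imm.) in red and denervated (den.) in green. Points are libraries and bars are group means. Within set 2 the denervated muscles stand apart for *Akt2* (414 to 481) and *Irs1* (6.47 to 13.0).

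*Akt1* was the only one of the 10 genes called in every treatment, higher in all 5 immobilizations and after denervation. *Foxo3* was called in none of these 6 comparisons, with log2 changes from -0.32 to 0.32. In WT muscle of set 1, immobilization called 5 of the 10 genes where 29.3% of all genes were called, 2 higher (background 14.9%) and 3 lower (14.5%). Sesn1SkM-Tg muscle also had 5 (background 34.7%), 2 higher (18.2%) and 3 lower (16.5%), and Sesn2SkM-Tg muscle 4 (30.7%), 2 higher (15%) and 2 lower (15.7%). In set 2, WT muscle had 3 (33.9%), all higher (16.2% higher and 17.7% lower among all genes), and Sesn1KO muscle 5 (37.1%), 4 higher (17.2%) and 1 lower (19.9%). Denervation called 7 (55.5%), 6 higher (27.8%) and 1 lower (27.7%), and denervated against immobilized WT muscle called 6 (38.9%), 4 higher (20.5%) and 2 lower (18.4%). At a log2 change of 1 or more in size, these 7 comparisons called 3, 2, 3, 1, 2, 3 and 3 of the 10 genes, where 7.62%, 9.48%, 6.93%, 5.03%, 6.52%, 14.8% and 6.85% of all genes were called. With 10 genes each share moves in steps of 10%, and nothing is read from these counts about the genes as a group. The median log2 change over the 10 genes was 0.03, -0.37 and 0.11 in WT, Sesn1SkM-Tg and Sesn2SkM-Tg muscle of set 1, 0.27 and 0.65 in WT and Sesn1KO muscle of set 2, and 0.91 after denervation, beside medians over all genes between -0.03 and 0.00.

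Treated muscles had lower library sums than basal ones, 766506 to 1126678 after immobilization and 722430 to 811541 after denervation beside 1007830 to 1276769. Rescaling every library to the same sum moved the median change of all genes to 0.28, 0.25 and 0.26 in WT, Sesn1SkM-Tg and Sesn2SkM-Tg muscle of set 1 and to 0.35 after denervation. The share of called genes that were higher went from 50.7%, 52.3%, 48.9% and 50.1% to 84.7%, 82.6%, 80.4% and 77.1% in these comparisons, from 47.7% to 64.3% in immobilized WT muscle and from 46.4% to 60.1% in Sesn1KO muscle of set 2, and from 52.7% to 82.3% for denervated against immobilized muscle. No called change of the 10 genes turned its direction under this rescaling, and the calls that it ended or added are given with each gene.

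**Figure D2:**
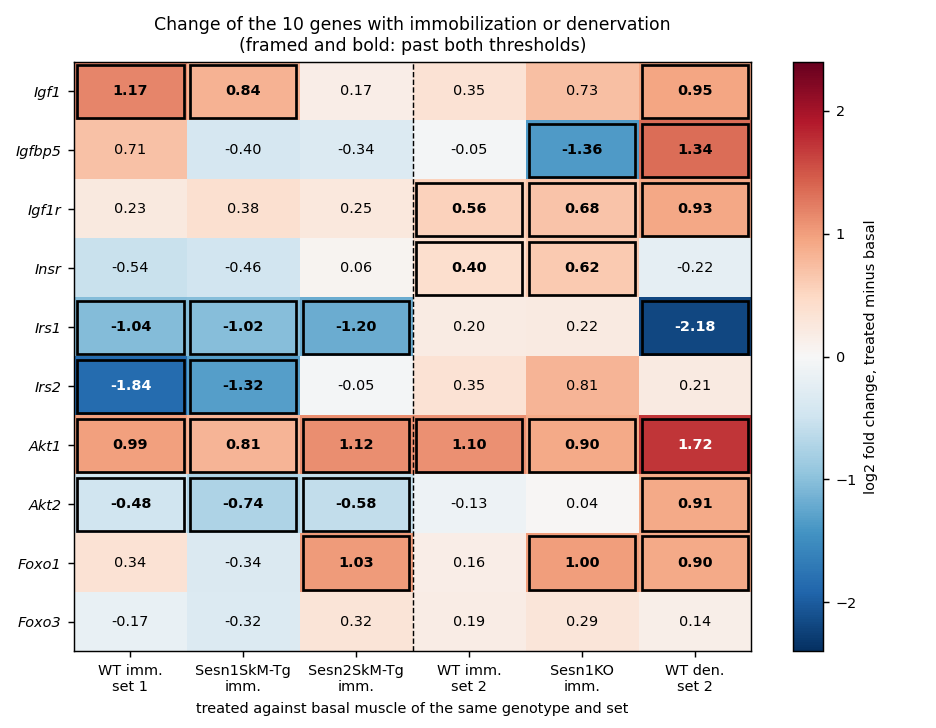
log2 fold changes (treated minus basal, on log2(value + 1)) of the 10 genes, in rows, in 5 immobilizations and 1 denervation, in columns, with red for higher and blue for lower. Framed bold cells passed both thresholds: *Akt1* did so in every column (0.81 to 1.72) and *Foxo3* in none.

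*Igf1* (ENSMUSG00000020053, chr10:87858265-87937042, plus strand, GRCm38) encodes the growth factor itself. In set 1 it read 9.16, 11.3, 10.04 and 3.75 in the basal WT muscles and 18.2, 15.9 and 24.7 in the immobilized ones, so the groups did not overlap. The log2 fold change was 1.17 ± 0.32 (2.25-fold, adjusted p = 0.0089, limma). In Sesn1SkM-Tg muscle it read 10.4, 14.1, 14.7 and 6.85 before and 12.7, 28.8 and 23.6 after immobilization, which overlapped, with a log2 change of 0.84 ± 0.32 (adjusted p = 0.045). Sesn2SkM-Tg muscle read 6.02 to 8.48 in the basal state and 5.61 to 12.5 after immobilization, and no change was called (0.17 ± 0.29, adjusted p = 0.70). In set 2 the immobilized groups scattered widely, at 8.95, 6.56, 9.05 and 18.7 in WT and 25.6, 31.3, 12.4 and 5.61 in Sesn1KO muscle, and neither passed (adjusted p = 0.50 and 0.13, limma). Denervated muscle read 20.3, 23.3, 12.5 and 10.4, all above the 5.79 to 9.69 of basal WT muscle (0.95 ± 0.37, adjusted p = 0.034), and it did not pass against immobilized muscle (0.60 ± 0.37, adjusted p = 0.20, or 0.93 with adjusted p = 0.049 when scaled to the same sum).

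Several of these *Igf1* calls were not kept when 1 library was left out. In WT muscle of set 1 the call ended without immobilized replicate 3 (1.00, adjusted p = 0.066). In Sesn1SkM-Tg muscle it ended without basal replicate 1 (0.81) or 4 (0.63) or immobilized replicate 2 (0.61) or 3 (0.75), and in Sesn1KO muscle *Igf1* was called without immobilized replicate 4 (1.17, adjusted p = 0.0058). After denervation it ended without basal replicate 1 (0.83), 2 (0.97) or 3 (0.95) or denervated replicate 1 (0.83) or 2 (0.77), with adjusted p between 0.053 and 0.11, and with robust eBayes (adjusted p = 0.058). The Sesn1SkM-Tg call also ended with a pseudocount of 0.1 or 0 (0.89, adjusted p = 0.053 and 0.90, adjusted p = 0.055). Markers of other cell types that can make IGF1 moved in some of the same comparisons. The 4 fibroblast markers (*Pdgfra*, *Dcn*, *Col1a1*, *Col3a1*) summed to 311 to 734 in basal and 718 to 1306 in immobilized WT muscle of set 1, with 3 of 4 called higher, and the 4 measured macrophage and leukocyte markers (*Ptprc*, *Cd68*, *Csf1r*, *Itgam*) to 11.2 to 18.8 and 58.3 to 122, with 4 of 4 higher. In Sesn1SkM-Tg muscle the fibroblast sum was 324 to 500.3 before and 815 to 2280 after immobilization and the macrophage and leukocyte sum 6.998 to 16.3 and 51.8 to 126, with 4 of 4 markers higher in both lists. After denervation the fibroblast sum was 261 to 434 beside 400.2 to 611 in basal muscle, with 2 of 4 lower, and the macrophage sum 24.3 to 63.1 beside 7.69 to 37.1, with 1 of 4 higher. None of the measured markers was at 0, but *Adgre1*, also on the macrophage and leukocyte list, was absent from the deposited values. The part of these cells in the *Igf1* values was not tested.

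*Igfbp5* (ENSMUSG00000026185, chr1:72857932-72874884, minus strand) encodes a secreted protein that binds IGFs. It was called higher in denervated WT muscle and lower in immobilized Sesn1KO muscle, which differ in both treatment and genotype. Denervated muscle read 1083, 933, 1785 and 1199 beside 471, 475, 426 and 554 in basal WT muscle, with no overlap (1.34 ± 0.27, 2.52-fold, adjusted p = 0.00029, limma). Immobilized WT muscle of set 2, at 475, 582, 333 and 499, overlapped the basal one (-0.05 ± 0.27, adjusted p = 0.91), and denervated muscle was above it by 1.39 ± 0.27 (adjusted p = 0.00038). In Sesn1KO muscle *Igfbp5* fell with immobilization from 516, 562, 353 and 585 to 114, 209, 144 and 389.6, where only the last library reached into the basal range (-1.36 ± 0.27, adjusted p = 0.00048). The difference between this immobilization effect and that in WT muscle, given below, was not called. In set 1 none of the immobilizations was called, with 0.71 ± 0.30 in WT (adjusted p = 0.082), -0.40 ± 0.30 in Sesn1SkM-Tg and -0.34 ± 0.28 in Sesn2SkM-Tg muscle, and the WT value passed without basal replicate 1 (0.87, adjusted p = 0.047) and with libraries scaled to the same sum (1.05, adjusted p = 0.019) or quantile normalized (1.03, adjusted p = 0.023). The fibroblast sum was 317 to 947 in immobilized and 491 to 1186 in basal Sesn1KO muscle, with 1 of 4 markers lower, and its part in the fall was not tested.

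*Igf1r* (ENSMUSG00000005533, chr7:67952827-68233668, plus strand), the IGF1 receptor gene, was higher after all 3 treatments of set 2. Basal WT muscle read 3.48, 3.95, 4.91 and 3.20, denervated muscle 8.10, 10.9, 7.85 and 6.60, without overlap (0.93 ± 0.21, 1.91-fold, adjusted p = 0.00084, limma). Immobilized WT muscle read 4.46, 5.08, 8.11 and 7.52 and shared part of the basal range (0.56 ± 0.21, adjusted p = 0.048). Immobilized Sesn1KO muscle read 8.85, 7.04, 3.84 and 7.29 beside 2.72 to 4.58 in the basal state, where replicate 3 stayed in the basal range (0.68 ± 0.21, adjusted p = 0.015). In set 1 *Igf1r* read between 2.38 and 10.9 in all groups and no immobilization was called, with log2 changes of 0.23, 0.38 and 0.25. The WT call of set 2 ended without basal replicate 1 (0.52), 2 (0.57) or 4 (0.49) or immobilized replicate 3 (0.44) or 4 (0.47), and the Sesn1KO call without basal replicate 3 (0.57) or immobilized replicate 1 (0.55). The denervation call was kept without any 1 library. Against immobilized muscle, denervated muscle was not called (0.37 ± 0.21, adjusted p = 0.17), except when libraries were scaled to the same sum (0.68, adjusted p = 0.018).

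*Insr* (ENSMUSG00000005534, chr8:3122061-3279617, minus strand) encodes the insulin receptor. In set 2 it rose with immobilization, from 75.3, 72.7, 71.0 and 85.8 to 103, 112, 93.9 and 94.98 in WT muscle (0.40 ± 0.10, 1.32-fold, adjusted p = 0.0026, limma) and from 66.6, 67.7, 77.5 and 73.5 to 132, 95.7, 107 and 110.1 in Sesn1KO muscle (0.62 ± 0.10, adjusted p = 2.9e-05). In neither genotype did the groups overlap. Denervated muscle read 58.2, 67.0, 67.3 and 68.3, below every basal library, but the change missed the threshold (-0.22 ± 0.10, adjusted p = 0.056, or -0.26 with adjusted p = 0.014 when quantile normalized), and it was also below immobilized muscle (-0.62 ± 0.10, adjusted p = 2.7e-05). In set 1 WT muscle read 94.1, 105, 117 and 69.3 before and 79.6, 55.5 and 61.8 after immobilization. This lower level was not called (-0.54 ± 0.22, adjusted p = 0.068), but it was without basal replicate 4 (-0.68, adjusted p = 0.023) or immobilized replicate 1 (-0.68, adjusted p = 0.042). Sesn1SkM-Tg muscle showed -0.46 ± 0.22 (adjusted p = 0.11), which was called without immobilized replicate 1 (-0.64, adjusted p = 0.043) and with no other groups in the fit (adjusted p = 0.0495), and Sesn2SkM-Tg muscle 0.06 ± 0.20 (adjusted p = 0.85).

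The adaptor genes *Irs1* and *Irs2* share a role but not a pattern, and *Akt1* was the most regular riser, so the RefSeq promoters of these genes (GRCm38.p6, 250 bases before to 50 after the annotated start, all on the minus strand) are printed here. Capitals mark GGGCGG, the core of an Sp1 site, CACGTG, an E-box that Myc can bind, and TGTTTAC, a FoxO core, each searched on both strands, and the 2 middle GGGCGG runs of the proximal *Akt1* promoter share 2 bases. A match describes letters, not a bound site.
Irs1, chr1:82291390-82291689: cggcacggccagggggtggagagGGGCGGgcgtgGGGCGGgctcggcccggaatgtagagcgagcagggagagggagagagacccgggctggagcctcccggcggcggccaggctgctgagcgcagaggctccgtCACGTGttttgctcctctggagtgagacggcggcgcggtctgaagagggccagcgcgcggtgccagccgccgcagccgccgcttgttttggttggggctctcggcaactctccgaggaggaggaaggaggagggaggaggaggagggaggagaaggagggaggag
Irs2, chr8:11008880-11009179: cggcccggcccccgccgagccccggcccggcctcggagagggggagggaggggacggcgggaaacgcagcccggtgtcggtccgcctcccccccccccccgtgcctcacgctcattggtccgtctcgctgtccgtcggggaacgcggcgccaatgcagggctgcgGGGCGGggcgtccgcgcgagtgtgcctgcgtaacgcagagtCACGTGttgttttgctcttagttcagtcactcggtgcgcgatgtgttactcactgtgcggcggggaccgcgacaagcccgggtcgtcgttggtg
Akt1 distal, chr12:112674835-112675134: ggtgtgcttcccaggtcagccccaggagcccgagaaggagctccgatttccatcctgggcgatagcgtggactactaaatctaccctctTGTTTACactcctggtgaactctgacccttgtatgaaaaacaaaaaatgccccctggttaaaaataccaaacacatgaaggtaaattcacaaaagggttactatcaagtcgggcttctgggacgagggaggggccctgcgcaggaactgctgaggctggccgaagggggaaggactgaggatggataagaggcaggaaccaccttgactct
Akt1 proximal, chr12:112674227-112674526: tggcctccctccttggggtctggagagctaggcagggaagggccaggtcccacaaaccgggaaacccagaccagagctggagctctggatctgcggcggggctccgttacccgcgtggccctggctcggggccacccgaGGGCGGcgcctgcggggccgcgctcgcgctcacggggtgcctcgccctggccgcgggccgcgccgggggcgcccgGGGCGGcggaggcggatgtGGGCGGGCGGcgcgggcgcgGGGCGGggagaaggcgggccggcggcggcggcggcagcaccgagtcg

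Promoters were found for 9 of the 10 genes, 13 in all, and not for *Insr*. The FoxO letters occurred in 1 of them, the distal *Akt1* promoter, 161 bases before the start, while 3.65% of the 32851 promoters in the RefSeq table held them. The E-box letters occurred in *Irs1* (115 bases before the start) and *Irs2* (44 bases before), beside 7.15% of all promoters. The Sp1 letters occurred in 7 of the 13, of 7 genes, beside 35.7% of all promoters.

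*Irs1* (ENSMUSG00000055980, chr1:82233101-82291416, minus strand) showed the deepest fall of the 10 genes after denervation. Basal WT muscle of set 2 read 43.1, 32.0, 44.0 and 57.1 and denervated muscle 7.17, 6.47, 9.70 and 13.0, far apart (-2.18 ± 0.19, 0.221 times the basal level, adjusted p = 6.5e-09, limma). Immobilized WT muscle of this set stayed at 42.1, 58.2, 47.04 and 52.5 (0.20 ± 0.19, adjusted p = 0.47) and Sesn1KO muscle at 38.1 to 60.9 (0.22 ± 0.19, adjusted p = 0.39), so that denervated muscle was also below immobilized muscle (-2.37 ± 0.19, adjusted p = 6.6e-09). In set 1 *Irs1* was called lower in all 3 immobilizations, although every pair of groups overlapped. WT muscle went from 64.9, 69.8, 49.6 and 30.2 to 37.1, 22.6 and 17.1 (-1.04 ± 0.38, adjusted p = 0.046), and Sesn1SkM-Tg muscle from 66.1, 58.8, 75.7 and 39.1 to 44.0, 22.5 and 22.6 (-1.02 ± 0.38, adjusted p = 0.045). Sesn2SkM-Tg muscle went from 25.0, 16.01, 32.8 and 42.6 to 12.2, 4.99, 19.1 and 13.8 (-1.2 ± 0.36, adjusted p = 0.014).

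These *Irs1* calls of set 1 were near the threshold. Rescaled to the same sum, they were -0.71 (adjusted p = 0.16), -0.72 (adjusted p = 0.16) and -0.91 (adjusted p = 0.055) and none held. Those of WT and Sesn1SkM-Tg muscle also missed it with other pseudocounts, quantile normalization or robust eBayes, and that of WT muscle with eBayes without a trend, at adjusted p from 0.0504 to 0.064. The WT call also ended without basal replicate 1 (-0.93), 2 (-0.89) or 3 (-1.05) or immobilized replicate 2 (-0.99) or 3 (-0.80). The Sesn1SkM-Tg call ended without basal replicate 1 (-0.96), 2 (-1.01) or 3 (-0.89) or immobilized replicate 2 (-0.86) or 3 (-0.86), and the Sesn2SkM-Tg call without basal replicate 4 (-0.99) or immobilized replicate 2 (-0.85). The denervation call was kept under every setting. Exons of *Irs1* share 2822 bases, 30.9% of its exon length, with *Gm9747* on the opposite strand, and the library kit is not stated to keep strand, so reads of these 2 genes may not have been told apart. *Gm9747* read 30.2 to 36.7 in basal and 4.53 to 14.5 in denervated WT muscle (-1.96 ± 0.21), but its immobilization changes in set 1, from -0.29 to 0.50, were not called. The fast fibre markers, 5 of 5 lower, summed to 44622 to 58393 in denervated and 101869 to 119704 in basal WT muscle of set 2. In immobilized WT muscle of that set, where *Irs1* was not called, they summed to 87811 to 99690. In set 1, where *Irs1* was called lower, WT muscle gave 88059 to 121235 before and 61608 to 77255 after immobilization. The part of the fast fibres in the *Irs1* values was not tested.

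*Irs2* (ENSMUSG00000038894, chr8:10984681-11008458, minus strand) fell with immobilization in WT and Sesn1SkM-Tg muscle of set 1. WT muscle went from 10.9, 15.5, 14.5 and 13.8 to 6.12, 2.87 and 1.43 (-1.84 ± 0.28, 0.278 times the basal level, adjusted p = 0.00010, limma), and Sesn1SkM-Tg muscle from 11.9, 13.4, 13.8 and 15.9 to 5.99, 4.86 and 3.97 (-1.32 ± 0.28, adjusted p = 0.0012). Neither pair overlapped, and both calls were kept without any 1 library. Sesn2SkM-Tg muscle, at 13.3, 6.78, 16.9 and 13.9 before and 12.3, 13.4, 9.60 and 11.5 after immobilization, was not called (-0.05 ± 0.26, adjusted p = 0.89). In set 2 immobilized WT muscle read 6.14, 11.9, 54.0 and 6.19 beside 10.9, 4.86, 10.1 and 16.7, with the third library far above the others (0.35 ± 0.45, adjusted p = 0.58, and -0.31 with adjusted p = 0.47 without it). Immobilized Sesn1KO muscle, at 18.2, 13.4, 9.71 and 7.92, was above all basal Sesn1KO libraries, at 5.44 to 6.99, yet not called (0.81 ± 0.45, adjusted p = 0.16), and denervated muscle, at 9.06 to 13.9, lay within the basal range (0.21 ± 0.45, adjusted p = 0.71). The shared spread of set 2 includes the library at 54.0, and in a fit of the 2 Sesn1KO groups alone their difference was called (adjusted p = 0.016).

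*Akt1* (ENSMUSG00000001729, chr12:112653821-112674884, minus strand) encodes an AKT kinase of broad expression, and it rose in all 6 treatments without any overlap between treated and basal libraries. In WT muscle of set 1 it went from 47.2, 46.9, 49.6 and 68.5 to 99.0, 98.2 and 118 (0.99 ± 0.18, 1.98-fold, adjusted p = 0.00048, limma). Sesn1SkM-Tg muscle went from 54.6, 53.3, 57.3 and 71.6 to 90.1, 103 and 121 (0.81 ± 0.18, adjusted p = 0.0016). Sesn2SkM-Tg muscle had the highest levels of set 1, from 70.1, 119.7, 72.3 and 75.1 to 171, 195, 154 and 205 (1.12 ± 0.16, adjusted p = 3.6e-05). Every one of these immobilized libraries lay above every basal library of its own genotype.

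In set 2, basal WT muscle read 57.0, 48.2, 48.9 and 46.2 for *Akt1*, immobilized WT muscle 111, 140.0, 115 and 77.1 (1.10 ± 0.18, 2.15-fold, adjusted p = 9.4e-05, limma). Denervated muscle read 165, 187, 174 and 145 (1.72 ± 0.18, 3.30-fold, adjusted p = 8.4e-08), above immobilized muscle by 0.62 ± 0.18 (adjusted p = 0.010) without overlap, a difference that narrowly missed the threshold without immobilized replicate 4 (0.46, adjusted p = 0.0503). Basal Sesn1KO muscle was tight, at 51.3, 52.9, 52.5 and 53.7, and immobilized Sesn1KO muscle split into 73.8 and 72.2 against 127 and 143 (0.90 ± 0.18, adjusted p = 0.00055). The 6 treatment calls were kept without any 1 library and under every scaling. Cell type markers moved in the same muscles of set 2. The 3 endothelial markers (*Pecam1*, *Cdh5*, *Kdr*), 3 of 3 lower after both treatments, summed to 205 to 261 in basal, 109.9 to 181 in immobilized and 100.5 to 129 in denervated WT muscle. The macrophage and leukocyte sum was 43.3 to 75.1 in immobilized WT muscle, with 2 of 4 higher. In set 1, where *Akt1* also rose, the endothelial sum was higher after immobilization in Sesn2SkM-Tg muscle, at 199 to 268 beside 114 to 139. It was 162 to 197 beside 130 to 185 in WT and 184 to 208 beside 121 to 192 in Sesn1SkM-Tg muscle, both with overlap. The part of these cells in the changes of *Akt1* and of the receptor genes was not tested.

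*Akt2* (ENSMUSG00000004056, chr7:27591552-27640826, plus strand), the AKT gene best known for insulin-stimulated glucose uptake, moved in opposite directions in immobilized muscle of set 1 and denervated muscle of set 2. Denervated muscle read 414, 439, 459 and 481, above the 251, 225, 228 and 248 of basal and the 212, 223, 209 and 227 of immobilized WT muscle (0.91 ± 0.10, 1.88-fold, adjusted p = 7.7e-08, and 1.04 ± 0.10, adjusted p = 3.8e-08, limma). Immobilization itself was not called in set 2, with -0.13 ± 0.10 in WT and 0.04 ± 0.10 in Sesn1KO muscle. In set 1 WT muscle went from 312, 296, 268 and 372 to 291, 205 and 182, with overlap (-0.48 ± 0.16, adjusted p = 0.025). Sesn1SkM-Tg muscle went from 343, 272, 316 and 356 to 209.5, 198 and 169.6 (-0.74 ± 0.16, adjusted p = 0.0014) and Sesn2SkM-Tg muscle from 294, 361, 319 and 332 to 237, 186, 247 and 205 (-0.58 ± 0.15, adjusted p = 0.0045), both without overlap. With libraries scaled to the same sum, the WT and Sesn2SkM-Tg falls were -0.15 (adjusted p = 0.42) and -0.27 (adjusted p = 0.096) and were no longer called. The WT call also ended without basal replicate 4 (-0.40) or immobilized replicate 2 (-0.43) or 3 (-0.34). It ended as well with quantile normalization (-0.28, adjusted p = 0.13) and with no other groups in the fit (adjusted p = 0.10).

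*Foxo1* (ENSMUSG00000044167, chr3:52268336-52353221, plus strand), one of the FoxO transcription factor genes of muscle, was called higher in 3 of the 6 treatments. Sesn2SkM-Tg muscle went from 16.2, 14.6, 19.4 and 17.8 to 53.6, 33.0, 33.5 and 26.9 (1.03 ± 0.19, 2.04-fold, adjusted p = 0.00042, limma), and Sesn1KO muscle from 13.6, 15.5, 14.6 and 14.9 to 23.5, 41.6, 24.1 and 35.8 (1.00 ± 0.18, adjusted p = 0.00013). Denervated muscle read 29.5, 25.4, 36.1 and 41.1 beside 16.1, 15.2, 17.1 and 19.5 in the basal state (0.90 ± 0.18, adjusted p = 0.00018) and was above immobilized muscle by 0.75 ± 0.18 (adjusted p = 0.0020). None of these pairs overlapped, and these 4 calls were kept without any 1 library. Immobilized WT muscle, in contrast, was not called in either set. In set 1 it read 31.9, 18.3 and 17.2 (0.34 ± 0.21, adjusted p = 0.22, or 0.66 with adjusted p = 0.023 when scaled to the same sum) and in set 2 18.1, 24.0, 14.2 and 20.9 (0.16 ± 0.18, adjusted p = 0.53). Sesn1SkM-Tg muscle read 14.9, 15.5 and 17.4 after and 17.4 to 25.5 before immobilization (-0.34 ± 0.21, adjusted p = 0.21).

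*Foxo3* (ENSMUSG00000048756, chr10:42181841-42276755, minus strand), the other FoxO gene followed, held a narrow range. Its group means lay between 20.8 and 29.3, and the 95% intervals of its 6 treatment changes reached from -0.70 to 0.67 on the log2 scale. The libraries did not overlap in 1 comparison, Sesn1SkM-Tg muscle, with 29.4, 25.0, 28.5 and 25.8 before and 20.8, 22.1 and 21.6 after immobilization (-0.32 ± 0.18, adjusted p = 0.18, limma). With libraries scaled to the same sum, *Foxo3* was called higher after denervation (0.59, adjusted p = 0.0060) and in immobilized Sesn2SkM-Tg muscle (0.62, adjusted p = 0.019), and it was called in Sesn1KO muscle without immobilized replicate 3 (0.40, adjusted p = 0.047).

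Genotypes were then compared within each set and state. None of the 10 genes differed between Sesn1SkM-Tg and WT muscle by limma, in basal muscle (4 genes called of 13705, 0.0292%) or after immobilization (1 gene, 0.0073%), and at an unadjusted p under 0.05 none did either. In immobilized muscle the widest interval among them ran from -0.65 to 1.06, for *Irs1*. Basal Sesn1KO muscle did not differ from WT either (background 0.147%), with 0 of the 10 at an unadjusted p under 0.05.

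Immobilized Sesn2SkM-Tg muscle differed from immobilized WT muscle in 4 of the 10 genes, where 2.94% of all genes were called, and none of the 4 pairs overlapped. *Igfbp5* read 290.3, 149, 189 and 321 beside 1057, 788 and 662 in WT (-1.85 ± 0.30, 0.277 times the WT level, adjusted p = 0.0031, limma). *Irs2* was higher, at 9.60 to 13.4 beside 1.43 to 6.12 (1.64 ± 0.28, 3.11-fold, adjusted p = 0.0041). *Akt1* was higher as well, at 154 to 205 beside 98.2 to 118 (0.78 ± 0.18, adjusted p = 0.022). *Igf1* was lower, at 5.61 to 12.5 beside 15.9 to 24.7 (-1.19 ± 0.32, adjusted p = 0.045). *Foxo1* missed the threshold (0.69 ± 0.21, adjusted p = 0.071), and was called without Sesn2SkM-Tg replicate 4 (0.82) or WT replicate 1 (0.96). The *Igfbp5* and *Irs2* calls were kept without any 1 library.

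The other calls of this comparison were less firm. That of *Akt1* ended without Sesn2SkM-Tg replicate 2 (0.74) or 4 (0.72) or WT replicate 1 (0.74) or 2 (0.73), with adjusted p between 0.052 and 0.080. The *Igf1* call ended without Sesn2SkM-Tg replicate 1 (-1.13), 3 (-1.05) or 4 (-1.19) or WT replicate 1 (-1.23), 2 (-1.32) or 3 (-1.02), with libraries scaled to the same sum (-1.27, adjusted p = 0.063) and with a pseudocount of 0.1 (-1.28, adjusted p = 0.051) or 0 (-1.29, adjusted p = 0.054). The fibroblast markers summed to 339 to 730.0 in immobilized Sesn2SkM-Tg and 718 to 1306 in immobilized WT muscle, with 0 of 4 called, and the macrophage and leukocyte markers to 48.7 to 144 and 58.3 to 122, with 1 of 4 lower. Their part in the *Igf1* and *Igfbp5* differences was not tested.

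In basal muscle, *Akt1* alone of the 10 genes differed between Sesn2SkM-Tg and WT mice (0.64 ± 0.16, 1.56-fold, adjusted p = 0.039, limma, background 2.5%), at 70.1 to 119.7 beside 46.9 to 68.5. At a log2 change of 1 or more it was not called (background 0.912%). The call ended without Sesn2SkM-Tg replicate 2 (0.46, adjusted p = 0.16), the library at 119.7, and without WT replicate 1 (0.59), 2 (0.59) or 3 (0.61). It also ended with libraries scaled to the same sum (0.59, adjusted p = 0.060), median centred (0.62, adjusted p = 0.068) or quantile normalized (0.60, adjusted p = 0.058), with eBayes without a trend (adjusted p = 0.053) and with no other groups in the fit (adjusted p = 0.22). *Igfbp5* read 173 to 419.6 beside 327 to 704, an overlap, and was not called (-0.81 ± 0.28, adjusted p = 0.15), and was called without WT replicate 4 (-1.01, adjusted p = 0.034).

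Immobilized Sesn1KO muscle differed from immobilized WT muscle in 1 of the 10 genes, *Igfbp5*, where 0.947% of all genes were called. It read 114, 209, 144 and 389.6 beside 475, 582, 333 and 499, so the libraries overlapped (-1.27 ± 0.27, 0.415 times the WT level, adjusted p = 0.028, limma). The call ended without Sesn1KO replicate 1 (-1.02) or 3 (-1.13) or WT replicate 1 (-1.26), 2 (-1.16) or 4 (-1.23), with adjusted p between 0.055 and 0.12, and with robust eBayes (adjusted p = 0.060) or no other groups in the fit (adjusted p = 0.32). *Foxo1* was next, at 23.5 to 41.6 beside 14.2 to 24.0, and missed the threshold (0.65 ± 0.18, adjusted p = 0.078). *Igfbp5* was thus called lower than in WT muscle in immobilized Sesn2SkM-Tg and in immobilized Sesn1KO muscle, each against the WT muscle of its own set.

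**Figure D3:**
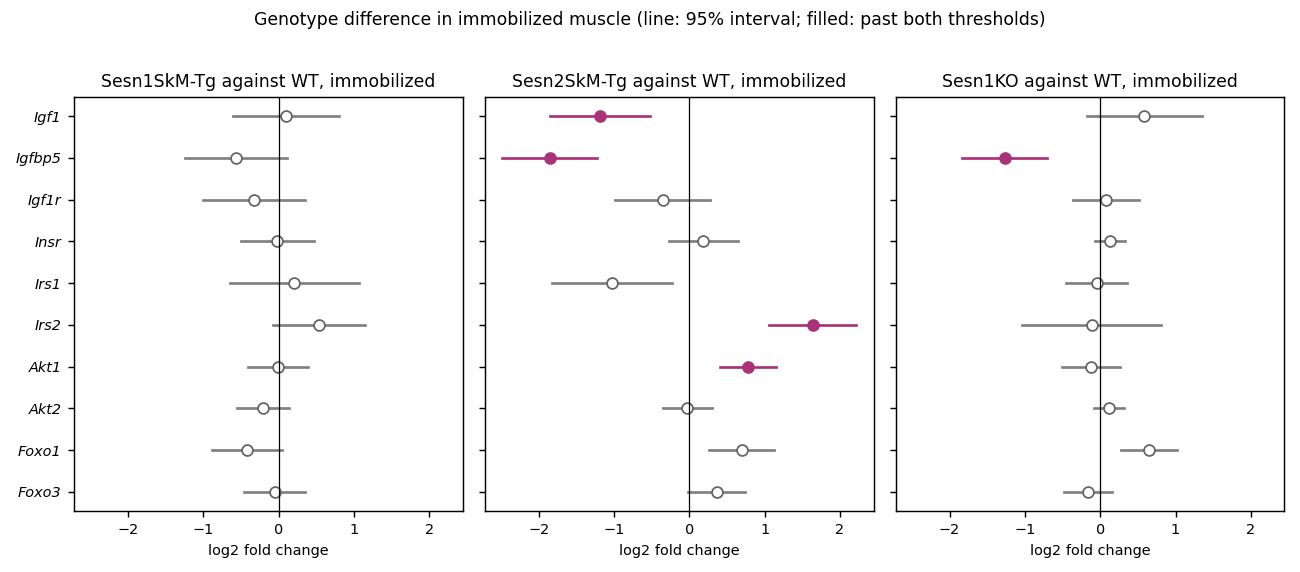
log2 differences between genotypes in immobilized muscle for the 10 genes, with 95% intervals as lines. Filled points passed both thresholds: *Igf1*, *Igfbp5*, *Irs2* and *Akt1* in Sesn2SkM-Tg muscle (-1.19, -1.85, 1.64 and 0.78) and *Igfbp5* in Sesn1KO muscle (-1.27).

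Whether immobilization acted differently in a genotype than in WT muscle was tested as an interaction, and no gene among the 10 passed in any genotype by limma (0, 1 and 3 genes called of all those tested for Sesn1SkM-Tg, Sesn2SkM-Tg and Sesn1KO muscle, or 0%, 0.0073% and 0.022%). At an unadjusted p under 0.05 there were 2, 4 and 2 of the 10, where 2.93%, 7.35% and 7.98% of all genes were. The largest difference was that of *Irs2* in Sesn2SkM-Tg muscle, 1.79 ± 0.38 (adjusted p = 0.11, interval 1.01 to 2.57), which was called without immobilized WT replicate 1 (2.19, adjusted p = 0.026). *Igfbp5* in Sesn1KO muscle gave -1.31 ± 0.39 (adjusted p = 0.34) and was called without immobilized Sesn1KO replicate 4 (-1.65, adjusted p = 0.027). *Foxo1* gave 0.84 ± 0.25 in Sesn1KO, 0.69 ± 0.28 in Sesn2SkM-Tg and -0.69 ± 0.29 in Sesn1SkM-Tg muscle, none called. These tests share the WT libraries of each set with the other comparisons.

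WT muscle was immobilized in both sets, and its response differed between them for 2 of the 10 genes, where 6.20% of 13763 genes were called in a fit over all 42 libraries. The *Irs2* change was -1.84 in set 1 and 0.35 in set 2, a difference of -2.19 ± 0.56 (adjusted p = 0.016, limma). For *Insr* it was -0.54 and 0.40, a difference of -0.94 ± 0.24 (adjusted p = 0.015), and at a size of 1 or more *Irs2* was the 1 gene called (background 2.83%). *Irs1* followed with -1.24 ± 0.45 (adjusted p = 0.091) and was called without basal replicate 4 (-1.48) or immobilized replicate 1 (-1.53) of set 1, and *Akt2* without the latter (-0.55, adjusted p = 0.046). Without the library at 54.0, immobilized replicate 3 of set 2, the *Irs2* change of set 2 was -0.31 (adjusted p = 0.47) and the difference between sets -1.53 (adjusted p = 0.030), still called. The *Irs2* call ended without immobilized replicate 3 of set 1 (-1.82, adjusted p = 0.084), and the *Insr* call without immobilized replicate 2 (-0.83) or 3 (-0.91) of set 1 and with libraries scaled to the same sum (-0.73, adjusted p = 0.084). The set is confounded with the mice and the sequencing of each set, which cannot be told apart.

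Ratios of partner genes within a library do not depend on how it was scaled. The plot of these ratios shows *Akt1* moving up against *Akt2* in every treatment, from 0.170 ± 0.017 (SD, n = 4) to 0.490 ± 0.16 (n = 3) in WT muscle of set 1, from 0.184 to 0.554 in Sesn1SkM-Tg muscle, and from 0.256 to 0.849 in Sesn2SkM-Tg muscle, where the highest library was at 1.05. In set 2 it went from 0.210 to 0.510 in immobilized and 0.376 in denervated WT muscle, and from 0.231 to 0.448 in Sesn1KO muscle, the only one of the 6 comparisons whose libraries overlapped. *Foxo1* to *Foxo3* went from 0.673 ± 0.055 to 1.18 ± 0.18 with denervation and from 0.707 ± 0.018 to 1.19 ± 0.16 in immobilized Sesn1KO muscle (SD, n = 4), without overlap, and from 0.669 to 0.981 in WT muscle of set 1. It stayed at 0.673 and 0.665 in WT muscle of set 2 and at 0.759 and 0.742 in Sesn1SkM-Tg muscle.

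*Irs2* to *Irs1* rose from 0.232 ± 0.059 in basal to 1.34 ± 0.27 in denervated muscle (SD, n = 4), without overlap, and fell from 0.285 to 0.125 in immobilized WT muscle of set 1, also without overlap. It went from 0.449 to 1.26 in Sesn2SkM-Tg, from 0.156 to 0.265 in Sesn1KO and from 0.249 to 0.176 in Sesn1SkM-Tg muscle with immobilization, and from 0.232 to 0.404 in WT muscle of set 2, all with overlap. *Insr* to *Igf1r* fell from 20.3 to 8.06 with denervation and from 16.7 to 9.65 and 23.4 to 12.7 in immobilized WT and Sesn1SkM-Tg muscle of set 1, each without overlap. In 13 of the 24 ratio comparisons the libraries did not overlap. Two-sided exact permutation tests could not go below p = 0.0286 with 4 against 4 libraries or 0.0571 with 3 against 4, and after adjustment over the 24 tests the lowest exact permutation p was 0.091, so none passed.

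**Figure D4:**
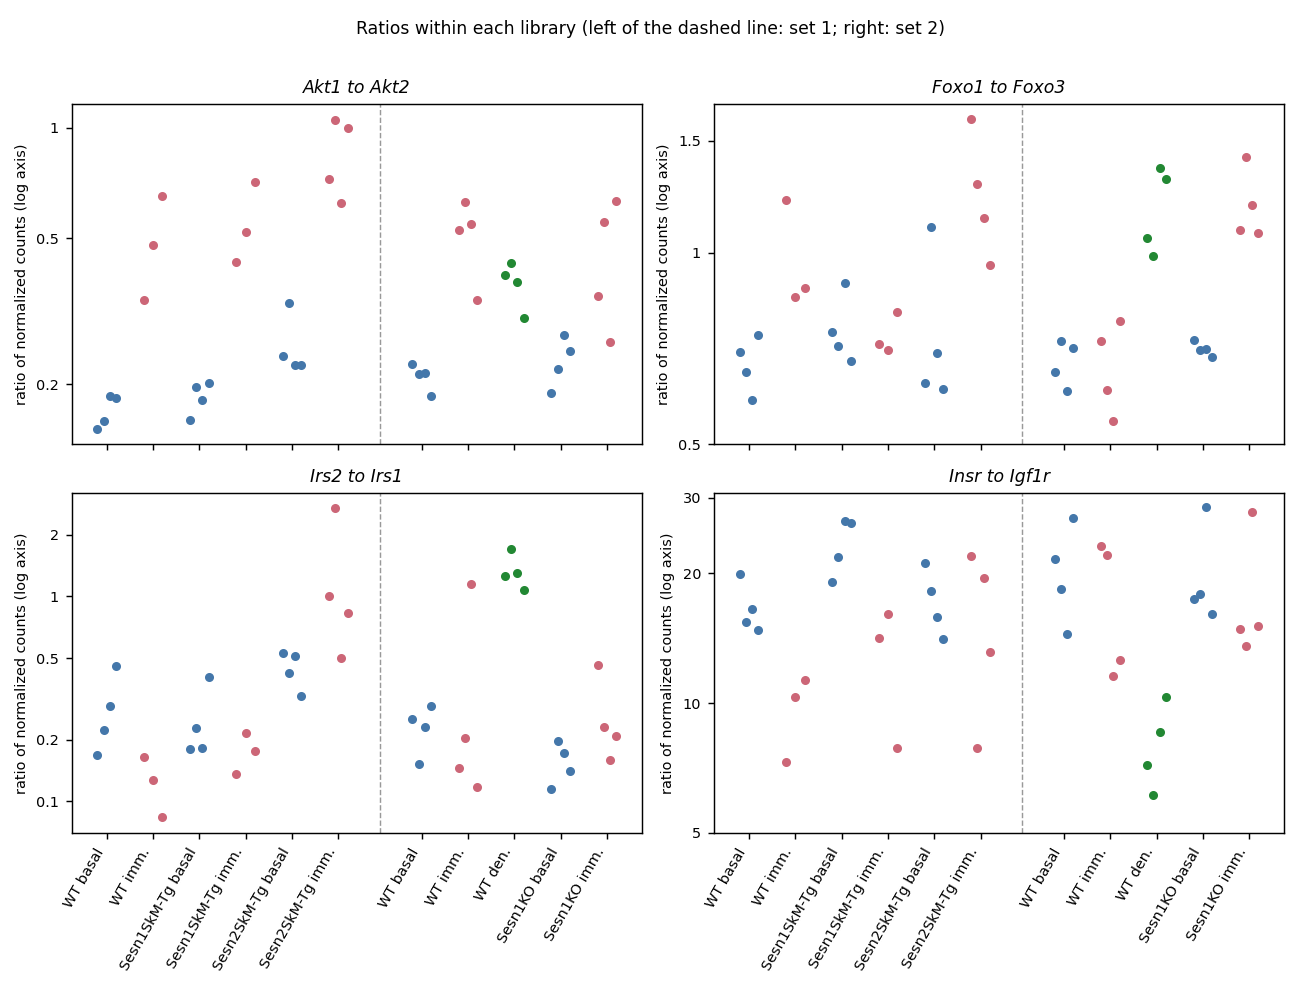
Ratios of normalized counts within each library (log axes) for 4 gene pairs, set 1 left and set 2 right of the dashed line, with basal muscle in blue, immobilized in red and denervated in green. *Akt1* to *Akt2* is higher in treated than in basal libraries in 5 of 6 comparisons without overlap, and *Irs2* to *Irs1* is highest as a group mean in denervated muscle (1.34).

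Across the 42 libraries, centred on the mean of each set, the 10 genes did not form 1 block. Of their 45 pairs, the strongest correlations of log2 values were -0.75 between *Irs1* and *Akt1*, 0.66 between *Akt1* and *Foxo1*, 0.61 between *Insr* and *Irs1* and 0.60 between *Foxo1* and *Foxo3*. Each is a description over libraries that share treatments, sets and scaling. Among all genes that passed the filter in both sets, the closest patterns were those of *Vars* (0.95), *Eif3b* and *Adrm1* (both 0.94) to *Akt1*, of *Jph1* (0.94), *Maf* (0.92) and *Phtf2* (0.89) to *Irs1*, and of *Dyrk1a* (0.91), *Qk* (0.90) and *Atxn7* (0.87) to *Insr*. To *Akt2* they were *Carm1* (0.89), *Neurl1a* (0.88) and *Pcx* (0.88), to *Igf1* *Rab8b* (0.83), *Serp1* (0.83) and *Zeb2* (0.80), to *Foxo1* *Hdac4* (0.81), *Siah1a* (0.78) and *Chrna9* (0.76), and to *Igfbp5* *Creg1* (0.80), *Gprc5c* (0.79) and *Gatsl2* (0.79). For *Igf1r* they were *Tbc1d15* (0.79), *Tec* (0.79) and *Pdcd6ip* (0.77), for *Foxo3* *Npc1* (0.75), *Dctn4* (0.74) and *Smcr8* (0.73), and for *Irs2*, the member with the weakest partners, *Csnk1e* (0.70) and *Mef2d* (0.68).

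The other genes of the pathway were read from 6 lists with 82 genes, of which 79 could be tested. The lists were chosen with earlier results of these data known. Their shares beside those of all genes are therefore descriptions and not tests of the lists. In set 1, immobilization called 13.9% of them higher and 20.3% lower in WT muscle (14.9% and 14.5% among all genes), 15.2% and 17.7% in Sesn1SkM-Tg muscle (18.2% and 16.5%) and 31.6% and 15.2% in Sesn2SkM-Tg muscle (15% and 15.7%). In set 2 the shares were 31.6% and 15.2% in WT muscle (16.2% and 17.7%), 29.1% and 20.3% in Sesn1KO muscle (17.2% and 19.9%) and 30.4% and 24.1% after denervation (27.8% and 27.7%). One list held AKT substrates and linked genes (10 genes, *Slc2a4* among them). Of these, 6 were lower and 1 higher in immobilized WT muscle of set 1 (14.5% and 14.9% among all genes). In that of set 2, 4 were lower and 4 higher (17.7% and 16.2%). *Slc2a4*, the insulin-responsive glucose transporter GLUT4, was called lower in all 5 immobilizations (-0.35 to -1.08) and after denervation (-1.98 ± 0.12, adjusted p = 2.0e-11, limma). The AKT-regulated trafficking gene *Tbc1d4* was lower in all but Sesn1SkM-Tg muscle (-0.48, adjusted p = 0.33), by -1.53 and -1.94 in immobilized WT muscle of sets 1 and 2 and by -3.34 after denervation. The FoxO family genes *Foxo6* (-1.09 to -1.95) and, to a lesser degree, the forkhead gene *Foxk2* (-0.31 to -0.58) were lower in all 5 immobilizations, while *Foxo6* did not change by this test after denervation (-0.02, adjusted p = 0.92).

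Upstream of AKT, *Grb14*, an inhibitor of the insulin receptor, was lower in all 5 immobilizations (-0.95 to -1.98) and after denervation (-2.5 ± 0.19, adjusted p = 5.8e-10, limma), and the adaptor gene *Shc1* was higher in all 5 (0.37 to 0.54) and after denervation (0.90). Of 14 genes of PI3 kinase and its opposing phosphatases, the catalytic subunit gene *Pik3cd* (-0.59 to -1.45) and the phosphatase gene *Inppl1*, or SHIP2 (-0.58 to -1.52), were lower in all 5 immobilizations and after denervation. Among 8 tested genes of ligands and binding proteins, *Igfbp4* was higher in immobilized WT muscle of set 1 (1.63 ± 0.25, adjusted p = 0.00014) and not called in that of set 2 (0.65, adjusted p = 0.075). The 8 kinases beside and above AKT gave 0 calls in immobilized WT muscle of set 1 (background 29.3%) and 2, both higher, in that of set 2 (background 16.2% higher).

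The longest list held 23 FoxO target genes of muscle, also chosen with earlier results of these data known. In set 1, 7 (30.4%) were higher and 3 (13%) lower in immobilized WT muscle, beside 14.9% and 14.5% of all genes, 4 (17.4%) and 3 (13%) in Sesn1SkM-Tg muscle, beside 18.2% and 16.5%, and 12 (52.2%) and 1 (4.35%) in Sesn2SkM-Tg muscle, beside 15% and 15.7%. In set 2, 11 (47.8%) and 3 (13%) were called in WT muscle, beside 16.2% and 17.7%, 11 (47.8%) and 4 (17.4%) in Sesn1KO muscle, beside 17.2% and 19.9%, and 14 (60.9%) and 4 (17.4%) after denervation, beside 27.8% and 27.7%. These 6 comparisons had median log2 changes of 0.08, 0.00, 0.55, 0.33, 0.53 and 0.63 beside -0.03 to 0.00 over all genes. *Eif4ebp1*, a brake on translation (1.94 to 2.27), *Gadd45a*, a stress-response gene (1.2 to 2.59), and *Sqstm1*, an autophagy receptor gene (0.68 to 1.5), were higher in all 5 immobilizations, and the antioxidant gene *Sod2* was lower in all 5 (-0.87 to -1.05). After denervation *Gadd45a* and *Cdkn1a*, a cell-cycle inhibitor gene, rose by 4.61 ± 0.22 (adjusted p = 1.1e-12, limma) and 3.93 ± 0.25 (adjusted p = 3.4e-11), and the lipoprotein lipase gene *Lpl* fell (-2.55 ± 0.16). Against immobilized muscle, denervated muscle had 7 of the 23 higher (30.4%, beside 20.5% of all genes), led by *Cdkn1a* (3.60), *Gadd45a* (2.66) and *Ctsl* (1.42), and 4 lower (17.4%, beside 18.4%), with *Lpl* at -1.37. The ubiquitin ligase gene *Trim63* was called in 4 of 5 immobilizations, at 1.6 and 2.09 in WT muscle of sets 1 and 2, and missed the threshold in Sesn1SkM-Tg muscle (0.67, adjusted p = 0.084). No gene tested, *Trim63* among them, was called for a different immobilization effect in Sesn1SkM-Tg than in WT muscle.

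**Figure D5:**
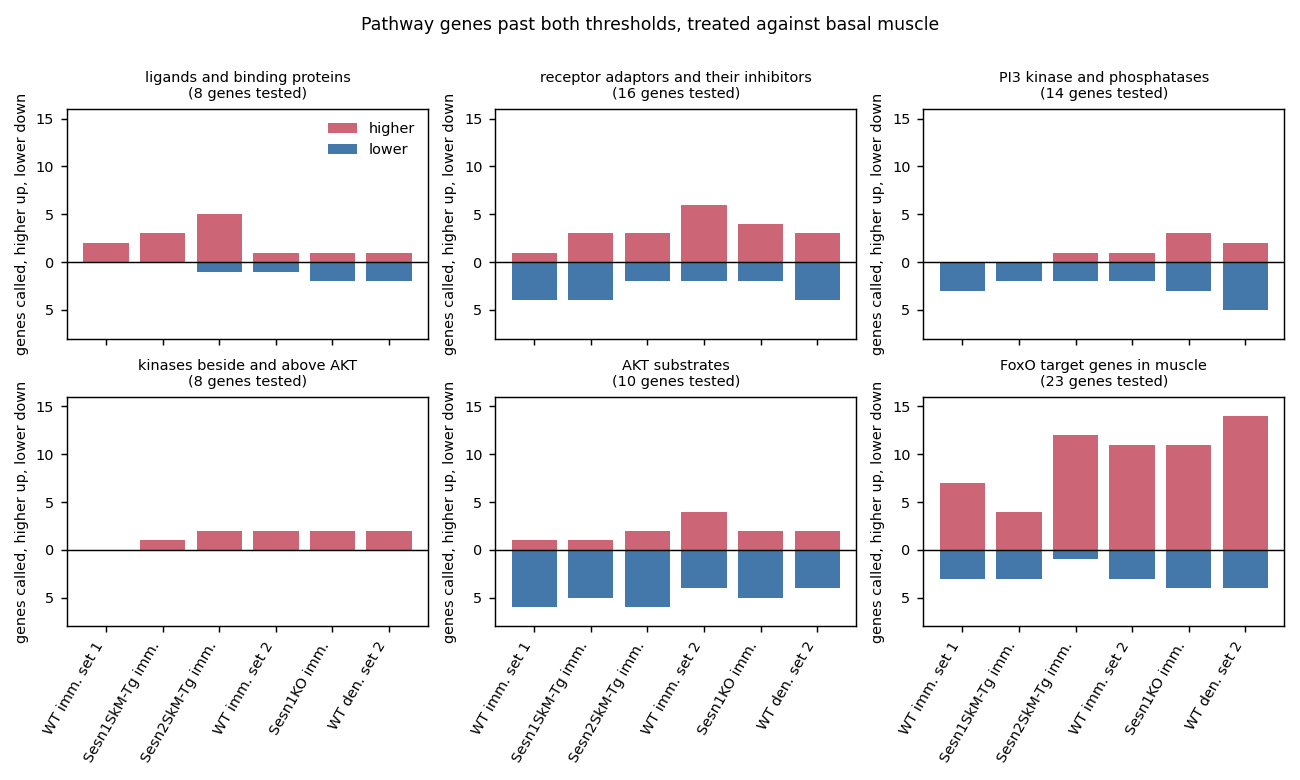
Numbers of pathway genes called higher (red, upward) and lower (blue, downward) in treated against basal muscle, for 6 lists and 6 comparisons. The lists differ in length, and of the 23 FoxO target genes 14 were higher after denervation (den.) and 4 in immobilized (imm.) Sesn1SkM-Tg muscle. Calls are counted within each genotype, and no gene was called for a different immobilization effect in Sesn1SkM-Tg than in WT muscle.

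Between genotypes, 2 of the 79 listed genes (2.53%, beside 2.94% of all genes) were called in immobilized Sesn2SkM-Tg against WT muscle, 3 (3.8%, beside 0.947%) in immobilized Sesn1KO muscle and 6 (7.59%, beside 2.5%) in basal Sesn2SkM-Tg muscle. Immobilized Sesn2SkM-Tg muscle differed from WT in *Igfbp3* (1.54 ± 0.24, adjusted p = 0.0022, limma) and *Sgk3* (-0.71 ± 0.19, adjusted p = 0.049). Immobilized Sesn1KO muscle differed in *Cdkn1a* (1.43 ± 0.25, adjusted p = 0.0059), *Pdpk1* (0.45 ± 0.08, adjusted p = 0.011), which encodes a kinase that activates AKT, and *Pik3ip1* (-1.03 ± 0.23, adjusted p = 0.030), whose product restrains PI3 kinase. In basal Sesn2SkM-Tg muscle *Pdk4* differed the furthest (-2.22 ± 0.29, adjusted p = 0.00015). These genes were named after their values were seen.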

How the data were processed

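RNA of 42 TA muscles was measured by RNA-seq (NEBNext Ultra library kit, Illumina HiSeq). Per the study's methods, the authors removed adaptors and very short reads with cutadapt 1.7.1, aligned the rest to the GRCm38 mouse transcriptome, estimated abundances with RSEM 1.2.20 and normalized with limma, and the submitters' processing notes also name edgeR, with no role. They deposited 1 table of normalized counts for both sets, which are linear signal values and not whole reads, so no count model was run and the depth behind a value is unknown. How the sets were normalized together, and whether counting used strand, was not given in the sources used here. All columns were matched to samples by title (0 were left unused).

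Groups came from the labels. Any gene that reached 1 in 1 or more of a set's libraries entered the test, done on log2(value + 1) with limma 3.58.1 (R 4.3.3; lmFit, then eBayes with a trend). All groups of the set entered the fit, without a replicate block, and p-values were adjusted by Benjamini-Hochberg over all genes. The WT response was compared between the sets in a fit over all 42 libraries. Both thresholds are given with the results. The test was checked on simulated data. Ratios were tested by two-sided exact permutation on log2 ratios.

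The members and the gene lists were chosen with earlier results of these data known. The named genes are the 10 members, the 3 genes most like each, and in the pathway lists the genes called with the same sign in all 5 immobilizations plus, for the WT comparisons, the 3 largest changes each way. Genes named outside this rule were chosen after their values were seen: those called between genotypes and the further values of Trim63, Tbc1d4 and Igfbp4. Some results that the rule names are not reported here. Exon lengths and overlaps came from GENCODE M21 (GRCm38), and promoters from RefSeq (GRCm38.p6). Alternatives were other filters, pseudocounts (0.1, 0), scalings, variance models, groups in the fit, fold thresholds, a replicate block, and leaving out each library in turn.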

Additional observations from a re-analysis of the deposited data

Results flagged for a closer look

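Of 90 groups of 4 libraries (each of the 10 genes in each group), 5 held a library far from the other 3 (Dixon's test at the 95% level), or 5.56%, and chance gives about 1 in 20. *Akt1* read 119.7 in basal Sesn2SkM-Tg replicate 2 beside 70.1 to 75.1 in the others, and the basal difference of *Akt1* from WT muscle was not called without it. *Akt1* also read 68.5 in basal WT replicate 4 of set 1 beside 46.9 to 49.6. These 2 libraries had the lowest median correlations with their own group (0.963 and 0.962). *Irs2* read 54.0 in immobilized WT replicate 3 of set 2 beside 6.14 to 11.9, *Foxo3* 39.4 in replicate 2 of that group beside 24.9 to 26.7, and *Insr* 58.2 in denervated replicate 1 beside 67.0 to 68.3.

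The response of WT muscle to immobilization differed between the sets for *Insr* (-0.94, set 1 minus set 2, adjusted p = 0.015 by limma) and *Irs2* (-2.19, adjusted p = 0.016). In set 1 every immobilized *Irs2* library was below every basal one, in set 2 the libraries overlapped.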

How the results depend on the processing

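No called value of the 10 genes reversed under any alternative. With 1 library left out, 1521 of 1590 values of single genes kept their side of the threshold, 55 lost it and 14 gained it, and under the other alternatives 2136 of 2200 kept it, 54 lost it and 10 gained it. In 111 of these 3790 fits the sign changed while neither value was called. Over the fits that left out 1 library, the number of the 10 genes called ran from 2 to 6 in immobilized WT muscle of set 1, 3 to 6 in Sesn1SkM-Tg muscle and 3 to 4 in Sesn2SkM-Tg muscle, from 2 to 3 in WT and 4 to 6 in Sesn1KO muscle of set 2, from 6 to 7 after denervation and 5 to 6 for denervated against immobilized muscle. Against WT it ran from 0 to 2 in basal and 2 to 3 in immobilized Sesn2SkM-Tg muscle, the latter always under the 4 of all libraries, and from 0 to 1 in immobilized Sesn1KO muscle. It ran from 0 to 4 for the difference between sets and from 0 to 1 for the interactions of Sesn2SkM-Tg and Sesn1KO muscle.

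Other settings moved these counts. With pseudocounts of 0.1 and 0, Sesn1SkM-Tg muscle had 3 after immobilization. Basal Sesn2SkM-Tg muscle had 0 against WT with libraries scaled to the same sum, median centred or quantile normalized, with eBayes without a trend, with only the compared groups and at a log2 change of 1 or more. Immobilized Sesn1KO muscle had 0 against WT with robust eBayes and with only the compared groups, and the difference between sets had 1 when scaled to the same sum and at the fold threshold of 1. That threshold gave 3 and 1 in immobilized WT muscle of sets 1 and 2, 2 in Sesn1SkM-Tg and 2 in Sesn1KO muscle, 3 after denervation and 3 for denervated against immobilized muscle. By construction it removes smaller changes, and the cause of the other shifts was not tested. Scaling to the same sum also moved the share of called genes that were higher from 56.1% to 43.2% for immobilized Sesn2SkM-Tg against WT muscle, from 55.8% to 44.7% for Sesn1KO against WT muscle and from 49.0% to 84.9% for the difference between sets, and median centring moved it from 60.1% to 50% for basal Sesn2SkM-Tg muscle.

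Deviations of same-numbered libraries of 2 groups correlated at -0.45 to 0.53, and in no comparison were all pairs above 0.1. Between Sesn1SkM-Tg and WT muscle of set 1, however, 3 of 4 basal and 2 of 3 immobilized pairs were above 0.1, up to 0.53 and 0.50. Whether the replicate numbers mark muscles that belong together is therefore not known. With the replicate number as a block no count moved by over 1.5 times, but *Igf1* was no longer called in immobilized Sesn1SkM-Tg muscle (0.73, adjusted p = 0.067 by limma) or against WT in immobilized Sesn2SkM-Tg muscle (-1.08, adjusted p = 0.069), nor *Igf1r* in immobilized WT muscle of set 2 (0.56, adjusted p = 0.068). The read depth behind low genes such as *Igf1r* is unknown, which limits what their differences show.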
